A study of Homo sapiens with 6 samples.

Results

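RNA polymerase II occupancy was examined at 33 mitosis genes, a list set by gene function, with earlier results of these data known. The regions examined were those whose gene symbol, as assigned by the authors, was on the list. These were 74 of the 46045 RPB1 regions in SHP-1 WT cells, 72 of 41605 in SHP-1 KO cells, and 146 of 102674 and 124 of 81012 phospho-Ser2 RPB1 regions in the same cells. Of the 33 genes, 32 had a region in at least 1 list and KIF23 had none. The cells were HepG2, a line from a human liver tumor, and were untreated. The KO cells carried a CRISPR knockout of PTPN6, the gene of the tyrosine phosphatase SHP-1. The WT cells were their control, and the study's ChIP-seq methods do not say whether these were untransfected or had a nontargeting guide. Each genotype gave 1 RPB1 and 1 phospho-Ser2 library, and 2 input libraries served as background. The lines came from single-cell clones by the study's methods, so clone, culture and genotype cannot be told apart, and no difference below has a replicate check or a test.

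RPB1 is the largest subunit of RNA polymerase II, and serine 2 of its C-terminal repeats becomes phosphorylated as the enzyme elongates, so that phospho-Ser2 builds up toward and beyond the 3′ ends of transcribed genes. The mitosis genes encode the kinases, checkpoint proteins, motors and proteolysis factors that carry a cell through chromosome segregation. In dividing cells their transcription is held back early in the cycle and peaks late, through promoter elements named CHR and CCAAT, which the MuvB complexes and NF-Y bind. The share of dividing cells was not measured, so fewer cells that transcribe a gene and less polymerase per cell cannot be told apart. HepG2 identity was checked at promoters. Each of the 4 lists held promoter regions of 9 of 10 hepatocyte markers, with APOA1 missing from 3 lists and FGB from the other. Among markers of other cell types, PTPRC, CD3E, KRT5, CDH5, COL1A1, GFAP, MYOD1 and DES had no promoter region in any list, and the endothelial marker PECAM1 had RPB1 values of 6.35 in WT and 4.32 in KO cells.

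The promoter sequences are shown first because the genes share letters that were not used to choose them. A RefSeq promoter window (GRCh38.p14, 250 bases before to 50 after the transcript start) was matched for 27 of the 33 genes. TTK, AURKA, TPX2, UBE2C, BIRC5 and BUB3 were not in the table. Each line below gives the 150 bases before the start, 5′ to 3′ along the gene, with CHR letters (TTTGAA or TTCGAA) and CCAAT letters in capitals. Both strands were searched, so the reverse complements are marked too. The first set holds both elements and includes CDK1, the kinase that drives entry into mitosis, and 3 genes with large differences in promoter RPB1, CDC25B, KIF4A and KIF11.

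CDK1 (chr10:60778328-60778477, forward strand): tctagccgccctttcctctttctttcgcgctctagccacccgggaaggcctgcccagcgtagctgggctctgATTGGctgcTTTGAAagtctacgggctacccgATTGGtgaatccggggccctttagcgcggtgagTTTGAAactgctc
CCNB2 (chr15:59104996-59105145, forward strand): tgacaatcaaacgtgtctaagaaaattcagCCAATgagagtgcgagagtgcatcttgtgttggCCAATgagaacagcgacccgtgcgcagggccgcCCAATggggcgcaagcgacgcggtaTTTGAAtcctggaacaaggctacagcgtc
CDC25B (chr20:3796160-3796309, forward strand): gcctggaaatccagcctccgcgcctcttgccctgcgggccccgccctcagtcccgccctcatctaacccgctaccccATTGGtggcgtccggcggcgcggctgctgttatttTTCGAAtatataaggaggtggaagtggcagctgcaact
PLK1 (chr16:23678739-23678888, forward strand): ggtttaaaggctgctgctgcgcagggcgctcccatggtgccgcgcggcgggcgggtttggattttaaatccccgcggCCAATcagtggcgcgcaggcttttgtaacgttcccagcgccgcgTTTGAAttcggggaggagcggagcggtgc
KIF4A (chrX:70289954-70290103, forward strand): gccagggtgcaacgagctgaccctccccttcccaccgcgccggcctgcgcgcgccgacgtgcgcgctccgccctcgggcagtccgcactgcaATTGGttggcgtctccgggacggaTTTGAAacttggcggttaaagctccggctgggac
KIF11 (chr10:92592980-92593129, forward strand): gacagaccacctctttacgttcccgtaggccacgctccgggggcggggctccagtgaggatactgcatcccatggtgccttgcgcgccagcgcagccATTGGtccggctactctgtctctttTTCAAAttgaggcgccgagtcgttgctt
ESPL1 (chr12:53268149-53268298, forward strand): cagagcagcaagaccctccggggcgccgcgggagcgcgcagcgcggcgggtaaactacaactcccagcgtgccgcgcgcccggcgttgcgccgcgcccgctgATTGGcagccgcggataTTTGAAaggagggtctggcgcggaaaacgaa

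The next set, with the B-type cyclin CCNB1, the cytokinesis motor KIF20A and the securin PTTG1, carries CCAAT letters without CHR letters.

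CCNB1 (chr5:69167000-69167149, forward strand): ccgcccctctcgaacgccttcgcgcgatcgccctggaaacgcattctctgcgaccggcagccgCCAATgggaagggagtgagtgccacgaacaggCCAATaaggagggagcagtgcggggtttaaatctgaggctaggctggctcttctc
KIF20A (chr5:138178962-138179111, forward strand): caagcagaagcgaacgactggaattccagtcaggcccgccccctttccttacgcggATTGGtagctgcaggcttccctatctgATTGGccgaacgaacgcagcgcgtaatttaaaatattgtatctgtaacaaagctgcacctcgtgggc
PTTG1 (chr5:160421705-160421854, forward strand): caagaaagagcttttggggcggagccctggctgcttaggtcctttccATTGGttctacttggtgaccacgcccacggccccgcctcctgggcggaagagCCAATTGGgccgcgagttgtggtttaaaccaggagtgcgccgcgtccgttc

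The last set, with the kinetochore motor CENPE and the microtubule depolymerase KIF2C, has neither.

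CENPE (chr4:103198344-103198493, reverse strand): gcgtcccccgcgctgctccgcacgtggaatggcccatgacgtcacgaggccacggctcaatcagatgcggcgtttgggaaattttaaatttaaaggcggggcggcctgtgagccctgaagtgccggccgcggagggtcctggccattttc
KIF2C (chr1:44739687-44739836, forward strand): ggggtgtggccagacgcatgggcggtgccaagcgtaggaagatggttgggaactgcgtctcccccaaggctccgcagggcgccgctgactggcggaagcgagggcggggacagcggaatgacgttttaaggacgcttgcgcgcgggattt

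CHR letters were found in 20 of 27 windows of mitosis genes (74.1%, 95% Wilson confidence interval 55.3 to 86.8) and in 13.0% of 15344 protein-coding genes. CCAAT letters were found in 22 of 27 (81.5%, 63.3 to 91.8) against 36.6% of all genes. Both stood together in 17 of 27 (63.0%, 44.2 to 78.5) against 5.47%. Among 59 other mitotic genes, 69.5% held CHR letters, and among 28 DNA replication genes 1 did (3.57%). TATAAA, the TATA box letters, stood in 1 window, that of TOP2A (3.70% against 9.41%). The CHR letters lay close to the start: with the window cut to 100 bases before and 50 after it, 19 of 27 (70.4%) still held them, against 5.43% of all genes. In CCNB2 they began 29 bases before the start, in PLK1 29, in CDC25C 30, in ESPL1 31, in KIF4A 34 and in CDC25B 38. In BUB1, MAD2L1, CENPF and NUF2 they were found after it. These are letter matches, not measured binding.

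**Figure D1:**
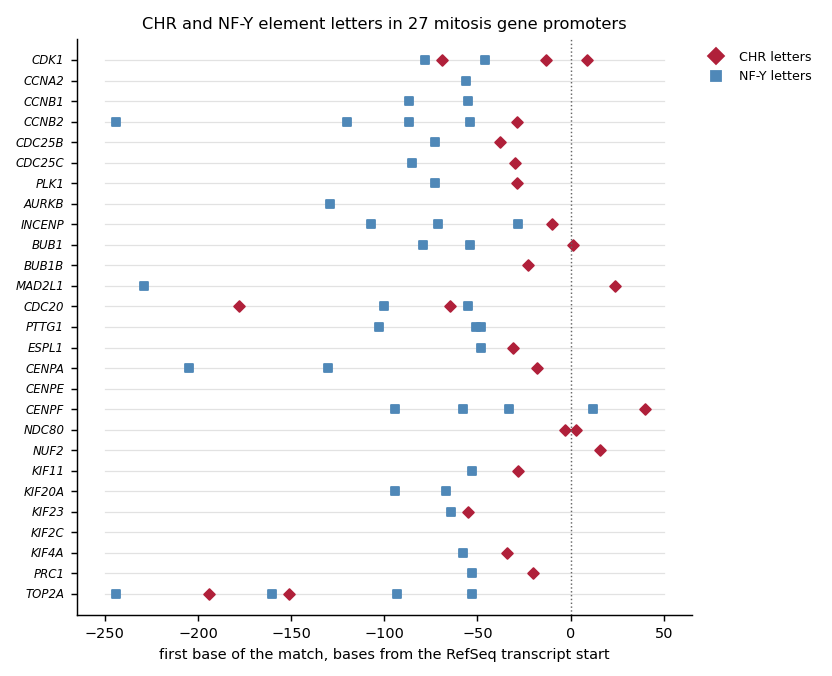
Positions of CHR letters (diamonds) and CCAAT letters (squares, the NF-Y element) in the promoter windows of 27 mitosis genes, with the distance in bases from the RefSeq transcript start on the horizontal axis and 1 gene per row. Most diamonds sit within 100 bases of the start, usually with squares upstream of them, and CENPE and KIF2C have no mark.

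RPB1 was called over nearly all of these windows. An RPB1 region overlapped 26 of the 27 in WT cells and 27 of 27 in SHP-1 KO cells, against 60.7% and 58.7% of all 15344 windows. Phospho-Ser2 regions overlapped 11 windows in WT and 10 in KO cells, against 32.5% and 29.6% of all windows. By position, all 33 genes had an RPB1 summit within 1 kb of the start of their canonical GENCODE transcript in both genotypes. The authors' gene assignment placed 4 of them under a neighbouring gene in at least 1 genotype. The region at AURKA was listed under CSTF1, that at CDC25C under FAM53C and that at KIF23 under LOC145694. At PTTG1 the WT region was listed under SLU7 and the KO region under PTTG1. An opposite protein-coding start lay within 1 kb at AURKA, NDC80, KIF20A and KIF4A, 4 of 33 mitosis genes (12.1%), and at 10.0% of all.

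The first comparison asked whether RPB1 at mitosis gene promoters differed between SHP-1 KO and WT cells. Values are MACS2 fold enrichments over input at the summit of the strongest promoter region, a ratio, and a gene was counted as lower or higher when the KO to WT ratio passed 1.5-fold. Of the 29 genes with a promoter region in both lists, 10 were lower in KO cells (34.5%, where 38.2% of 11250 genes were) and 0 were higher (2.12% of all genes were). The median ratio was 0.777 (log2 -0.36), against 0.727 (log2 -0.46) over all genes, with 21 ratios below 1 and 8 above. Their median fold enrichment was 16.1 in WT and 12.6 in KO cells, below that of all genes, 26.1 and 19.0. The share of lower mitosis genes was near that of all genes, and centred on the all-gene median the mitosis genes stood at a log2 of 0.10, with 2 lower and 5 higher, where 9.29% and 10.3% of all genes were. The 49 other mitotic genes had a median ratio of 0.666, with 25 lower and 0 higher, and the 26 DNA replication genes 0.613, with 14 lower and 1 higher. Both lists lay below the mitosis genes, a difference that could not be tested.

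The ratios varied with the WT level. That level is also the denominator of the ratio, so level and ratio are not independent, and the trend was not tested. Among the 9 genes with a WT fold enrichment from 20 to 40, 5 were lower and the median ratio was 0.597, against 42.3% and 0.706 over 4518 genes of that level. CENPA and KIF4A, above 40, were both lower, with a median of 0.532, where 1354 of 3079 genes were lower and the median was 0.691. The CENPA value is that of a region far upstream of its canonical start. Among the 14 from 10 to 20, 3 were lower and the median was 0.810, against 37.2% and 0.743 over 2239 genes. The 4 genes below 10 (CENPF, ESPL1, NDC80 and TPX2) had a median of 1.12 and 0 lower, against 0.957 and 14.1% over 1414 genes. The 18 mitosis genes with CHR letters and a ratio had a median of 0.782 with 5 lower, the 6 without them 0.824 with 2 lower, and all genes with and without them 0.723 and 0.722, with 38.0% and 39.3% lower.

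**Figure D2:**
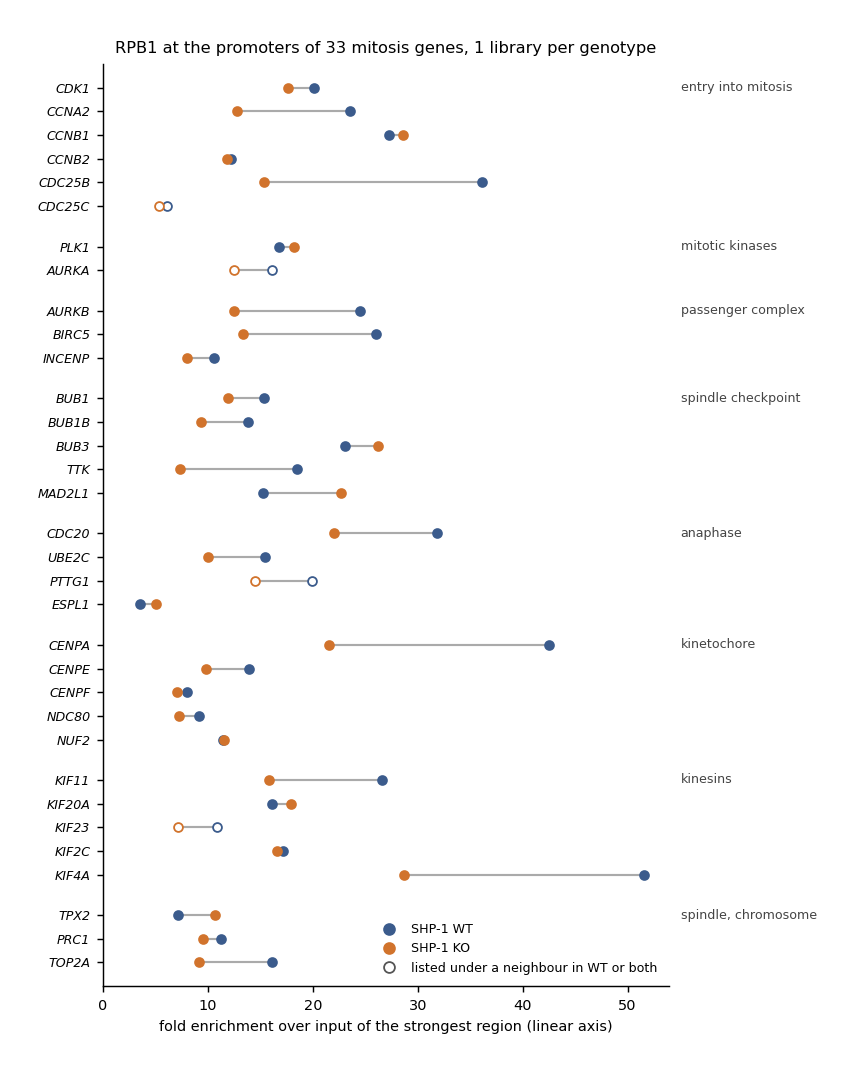
Fold enrichment of the strongest promoter RPB1 region of each mitosis gene (horizontal axis, linear, from 0) in SHP-1 WT (blue) and KO cells (orange), 1 library each, with genes grouped by role. Open circles give the region at the canonical start for the 4 genes whose WT region was listed under a neighbour. Most KO points lie left of their WT point, KIF4A and CENPA lie farthest right in WT, and the KO points of TPX2, MAD2L1, ESPL1, BUB3, KIF20A, PLK1, CCNB1 and, barely, NUF2 lie right of their WT point.

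Of the genes for entry into mitosis, CDC25B, a phosphatase that activates CDK1, had the second lowest ratio of all. Its promoter region (chr20:3795629-3797116 of hg38 in WT, like all region coordinates given here, from before the start into the gene) had a fold enrichment of 36.1 in WT and 15.4 in KO cells, a ratio of 0.43. Cyclin A2, CCNA2, had 23.5 and 12.7, a ratio of 0.54. CDK1 and the B-type cyclins had ratios close to 1. CDK1 had 20.1 and 17.6, and its partner CCNB1, among the highest in WT, 27.3 and 28.6. The other B-type cyclin CCNB2 had 12.2 and 11.9. CDC25C, the other CDK1 phosphatase measured, had 6.09 and 5.32 at its start in the region listed under FAM53C.

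The mitotic kinases PLK1 and AURKA showed small differences. PLK1, which acts in spindle assembly and cytokinesis, had 16.8 in WT and 18.2 in KO cells. AURKA, the spindle pole kinase, had 16.1 and 12.5 at its start, in the region shared with CSTF1. The 3 genes of the chromosomal passenger complex all had ratios below 1. Its kinase AURKB had 24.5 and 12.4 and its subunit BIRC5 (survivin) 26.0 and 13.3, both a ratio of 0.51. The scaffold INCENP had 10.6 and 7.99.

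The spindle checkpoint genes spanned nearly the whole range. TTK, the kinase that starts checkpoint signalling, had the lowest ratio of the 29 genes, 0.40, with 18.5 in WT (chr6:80003930-80005096) and 7.37 in KO cells (chr6:80004096-80004903). MAD2L1, which with BUB1B and BUB3 inhibits CDC20, had the second highest, 1.48, with 15.3 in WT (chr4:120066306-120067734) and 22.7 in KO cells (chr4:120066208-120067921). BUB3 had 23.0 and 26.3, BUB1B 13.8 and 9.35, and the kinase BUB1 15.3 and 11.9. Proteins of 1 complex thus had promoters on both sides of 1.

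For anaphase, CDC20, which activates the anaphase promoting complex, had 31.8 in WT and 22.0 in KO cells. UBE2C, the E2 enzyme of that complex, had 15.4 and 10.0, a ratio of 0.65. ESPL1, the separase that cuts cohesin, had the weakest promoter regions, 3.54 and 5.02. Its inhibitor PTTG1 had a region under its own symbol in KO cells only (14.4), 1 of 30 genes with a KO region, where 4.88% of all genes with one had none in WT. At the PTTG1 start the WT list held 19.9, so this absence came with the assignment to SLU7. No mitosis gene with a WT promoter region lacked one in KO cells (0 of 29, against 8.01% of 12229 genes).

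CENPA, the histone H3 variant of centromeres, had the second highest WT value by the authors' assignment, 42.5 against 21.6 in KO cells. That region (chr2:26763629-26764918) lies far upstream of the canonical CENPA transcript, at another annotated start. Which gene that start serves was not tested, so the value may not be that of CENPA. At the canonical start the values were 19.5 and 13.5, a ratio of 0.69, which no longer counts as lower. The other kinetochore genes had low promoter values. CENPE had 13.9 and 9.83, CENPF 8.04 and 7.09, and the Ndc80 complex subunits NDC80 and NUF2 9.19 and 7.24, and 11.5 in both lists.

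Among the kinesins, KIF4A, a motor of chromosome arms and the central spindle, had the highest promoter RPB1 of all in both lists, 51.6 in WT (chrX:70289631-70290345) and 28.7 in KO cells (chrX:70289514-70290331). It shares this promoter with PDZD11, which starts within 1 kb on the other strand. KIF11, the motor that makes spindles bipolar, had 26.6 and 15.9. In the KO list its stretch was split, and at the start itself the KO value was 14.2. KIF20A and KIF2C differed little, with 16.1 and 17.9, and 17.2 and 16.6. KIF23, the central spindle motor, had 10.8 and 7.17 at its start. Of the spindle and chromosome genes, TOP2A, the topoisomerase that untangles sister chromatids, had 16.1 and 9.13, and PRC1, which bundles midzone microtubules, 11.3 and 9.53. TPX2, the activator of AURKA, had the highest ratio, 1.49, with 7.17 in WT and 10.7 in KO cells.

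Counted by position, with the 4 reassigned genes included, 10 of 33 were lower and 0 higher, against 39.6% and 1.07% of 11101 genes. CENPA was no longer among the 10, and KIF23 was. The median ratio was again 0.777, with 25 ratios below 1 and 8 above.

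**Figure D3:**
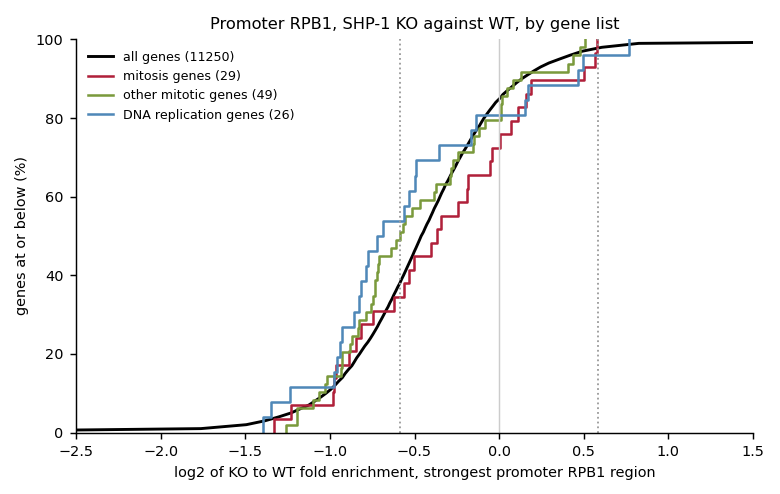
Cumulative share of genes (vertical axis, percent) at or below each log2 KO to WT ratio of promoter RPB1 (horizontal axis), for all 11250 genes, 29 mitosis genes, 49 other mitotic genes and 26 DNA replication genes, with dotted lines at 1.5-fold either way. The mitosis curve runs on or to the right of the all-gene curve over most of its length, and at the median the other lists lie to its left.

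RPB1 inside the gene bodies was sparse. A gene body region (intron, exon or UTR) was listed for 10 mitosis genes in WT and 9 in KO cells, and 7 had it in both. Of these, 2 were higher in KO cells and 0 lower, where 6.9% and 15.8% of 4684 genes were. AURKB had 4.46 in WT and 7.92 in KO cells, in its 3′ UTR. PLK1 had 3.93 and 7.46, in regions whose summits lie past the end of the canonical gene. The WT list held 6.66 there under ERN2, and from 1 kb after the start to the gene end PLK1 had 5.02 and 6.42, so at matched places it was not higher by 1.5-fold. AURKA (4.59 and 6.75), CDC25B (3.50 and 4.96) and TOP2A (2.94 and 3.54) were also above 1, while CENPA (6.62 and 4.81) and KIF2C (5.64 and 4.75) were below. CCNA2 (3.84), BIRC5 (5.01) and CDC20 (5.78) had a region in WT only, 3 of 10, where 27.2% of genes with a WT region had none in KO cells. By position, KO regions listed under neighbours lay inside CDC20 (6.86, MIR6734) and BIRC5 (5.73, TMEM235). MAD2L1 (4.60) and ESPL1 (4.75) had one in KO cells only, 2 of 9, where 19.7% did. The regions of CENPA, MAD2L1 and KIF2C given here lie outside the canonical gene, upstream of it or, for KIF2C, past its end. At their promoters, by contrast, PLK1 had a ratio near 1 and AURKB was lower in KO cells.

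Most RPB1 regions of mitosis genes were found again in the other genotype. Of the 74 WT regions 51 were overlapped by a KO region (68.9%, 57.7 to 78.3), against 61.9% of all. At promoters it was 35 of 43 (81.4%, against 76.5%) and in gene bodies 8 of 14 (57.1%, against 50.0%). In the other direction, 54 of the 72 KO member regions met one in WT, a share near the 74.9% of all. The regions not overlapped were weak, with a median fold enrichment of 4.19 against 11.3. Of the WT member regions, 58.1% lay at promoters and 18.9% in gene bodies, while of all WT regions 44.6% and 40.4% did.

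The second comparison asked how elongating polymerase, marked by phospho-Ser2, differed at the same genes. Of the 29 genes with a WT promoter RPB1 region, 23 had at least 1 phospho-Ser2 region in WT cells (79.3%, against 79.6% of all genes with one). In KO cells 22 of 30 did (73.3%, where 8871 of 11827 genes did). A gene body region was listed for 16 of the 29 in WT (55.2%, 37.5 to 71.6) and 10 of 30 in KO cells (33.3%, 19.2 to 51.2), against 59.2% and 53.4% of all. In WT cells the median mitosis gene stood at the 29.8th percentile of promoter RPB1 and, where it had one, at the 53.3rd percentile of gene body phospho-Ser2, each among the genes of its own list. BUB1B, CDC25B, CENPE, ESPL1, KIF23, KIF4A and NUF2 had no phospho-Ser2 region under their symbol in either genotype.

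Over the whole locus, 88 of the 146 WT phospho-Ser2 regions were overlapped by a KO region (60.3%, 52.2 to 67.8), against 52.2% of all. In gene bodies 39 of 77 were (50.6%, against 48.2%).

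Regions classed as promoter showed phospho-Ser2 in 17 mitosis genes in WT and 17 in KO cells, 13 in both. Of these 13, 2 were higher in KO cells and 0 lower, where 8.39% and 13.5% of 7191 genes were, and the median ratio was 1.19 against 0.958. UBE2C had the largest ratio, 2.19, with 4.98 in WT and 10.9 in KO cells. This region covers the transcript start, where RPB1 was lower in KO cells (15.4 and 10.0). Other phospho-Ser2 regions lay upstream of the UBE2C start in both genotypes, and whether this signal belongs to UBE2C was not tested. TPX2 had 2.79 and 4.40 at its start, where RPB1 was also higher. A promoter region was listed in WT only for CCNB2 (4.35), BIRC5 (6.61), TTK (3.08) and CENPF (3.50), 4 of 17, where 20.6% of genes with a WT region had none in KO cells. In KO cells only, it was listed for CDK1 (4.54), AURKB (4.27), BUB3 (4.13) and TOP2A (2.42), again 4 of 17, where 10.2% did. The class is set by the nearest transcript, short internal ones included, so some of these lie inside the gene or near its 3′ end. The WT region of CENPF and the KO regions of TOP2A lie well inside the canonical genes, away from their starts. The strongest promoter-class region of CCNB1, 8.38 in WT and 9.60 in KO cells, spans the end of the gene, and that of AURKB lies in its last part.

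**Figure D4:**
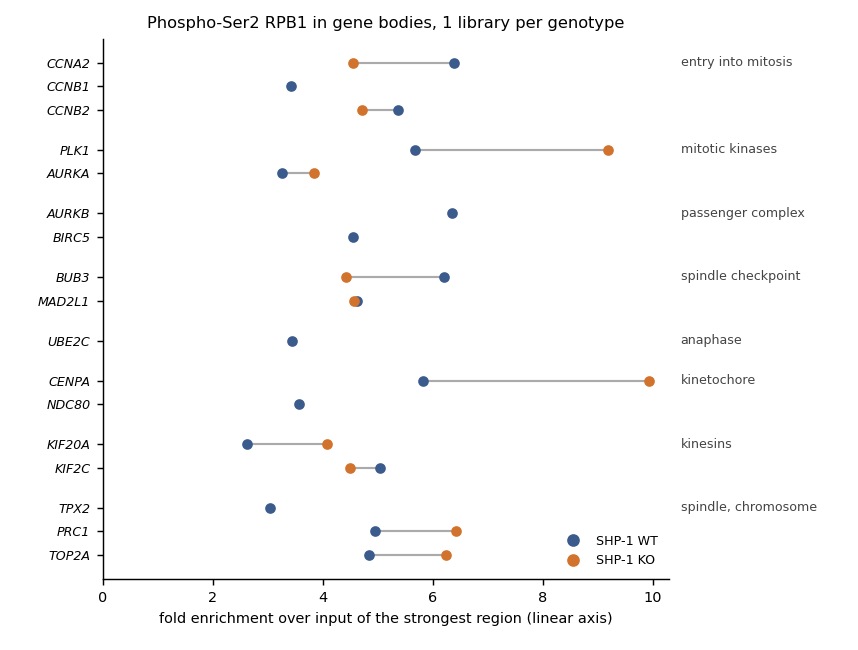
Fold enrichment of the strongest gene body phospho-Ser2 region (horizontal axis, linear, from 0) for the 17 mitosis genes that had one, in SHP-1 WT (blue) and KO cells (orange), 1 library each. For 6 genes there is a WT point alone, and PLK1 and CENPA show the widest gaps, with the KO point at 9.17 and 9.93. Both CENPA points, and the WT points of PLK1, BIRC5 and UBE2C, come from regions upstream of the canonical starts.

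In gene bodies phospho-Ser2 was listed for 17 mitosis genes in WT and 11 in KO cells. All 11 were among the 17. Thus 6 of 17 had a region in WT only, where 20.8% of 9415 genes did, and 0 of 11 in KO cells only, where 8.36% of 8133 did. These 6 were AURKB (6.35), BIRC5 (4.54), NDC80 (3.56), UBE2C (3.43), CCNB1 (3.41) and TPX2 (3.03). The BIRC5 and UBE2C values come from regions upstream of the canonical starts, outside those genes. Of the 11 in both, 3 were higher in KO cells and 0 lower, where 6.01% and 9.96% of 7453 genes were. The median ratio was 1.18 against 0.951.

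The 3 higher genes were CENPA, PLK1 and KIF20A. CENPA had 5.81 in WT and 9.93 in KO cells, a ratio of 1.71, in an intron upstream of its canonical start (chr2:26782315-26783993 in WT). From 1 kb after that start to the gene end, CENPA had no phospho-Ser2 region in either genotype. PLK1 had 5.68 and 9.17, a ratio of 1.62, in regions at different places. The WT region lies upstream of the PLK1 start, and from 1 kb after the start to the gene end, all classes included, the values were 6.52 and 5.90. The KO region spans the end of PLK1 (chr16:23689912-23693030). The WT list held 7.49 just past that end, in a region listed under ERN2, so that over the same 5 kb the ratio was 1.22. KIF20A had 2.62 and 4.07, a ratio of 1.55, in its last part. With all its regions past 1 kb from the start, promoter class included, KIF20A had 4.85 and 4.58. PRC1 had 4.94 and 6.41 in its 3′ part (chr15:90968401-90969149 in WT). TOP2A had 4.83 in WT, in an intron, and 6.23 in KO cells, at the gene end. The WT list held 7.73 past that end, in another class, and over matched stretches TOP2A had 4.83 and 3.99 inside the gene and 7.73 and 6.23 past its end.

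The lowest ratios were those of BUB3 and CCNA2, both 0.71. BUB3 had 6.20 in WT and 4.42 in KO cells. CCNA2 had 6.37 in WT and 4.55 in KO cells, both in its 3′ UTR. CCNB2 had 5.36 and 4.71, but 9 regions of 3886 bp in all in WT and 2 regions of 518 bp in KO cells. Of these, 5 and 1 lay inside the canonical gene and the rest past its end. KIF2C had 5.03 and 4.50, with 6 and 2 regions. MAD2L1 had 4.63 and 4.57. AURKA, between these, had 3.25 and 3.84.

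**Figure D5:**
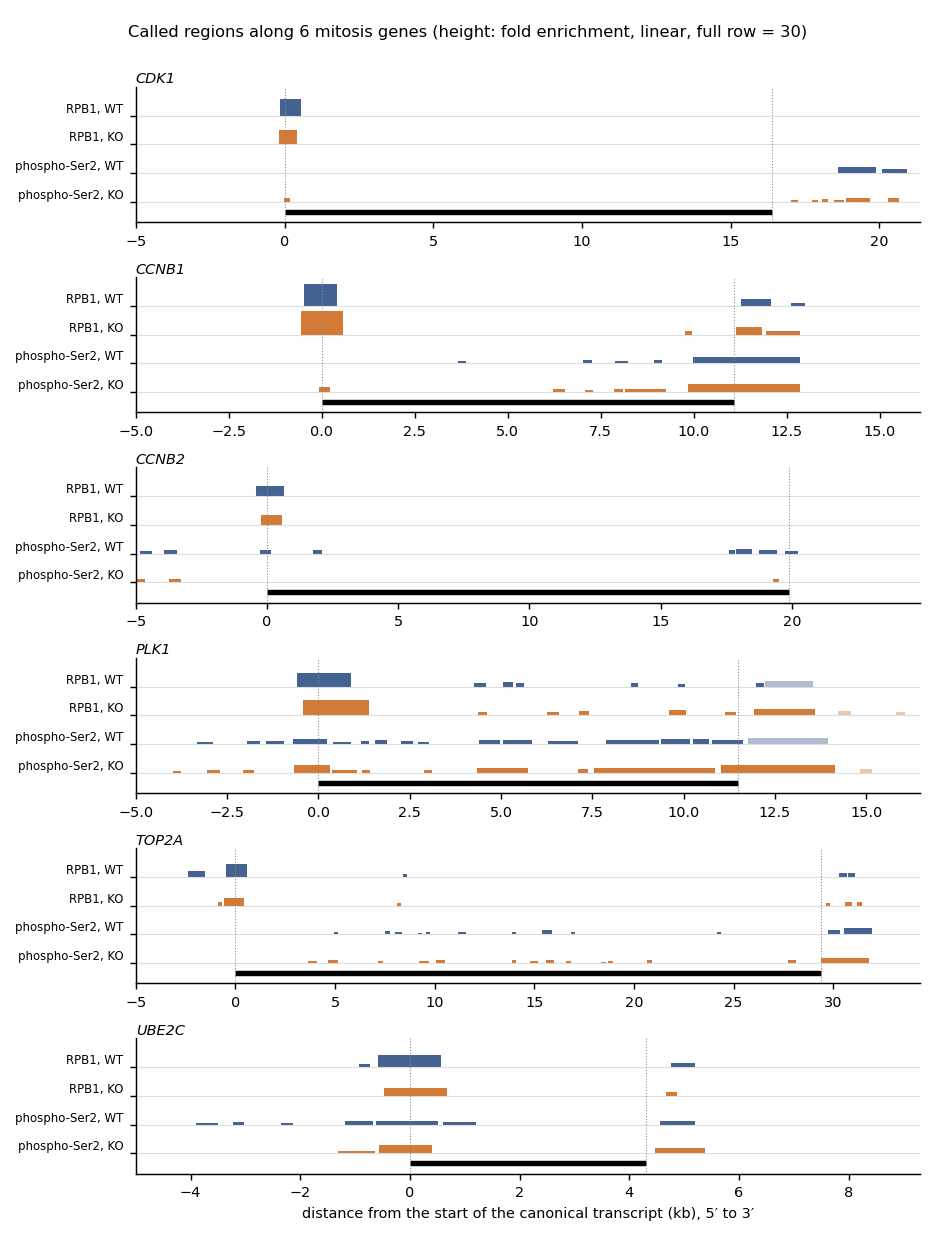
Called regions along CDK1, CCNB1, CCNB2, PLK1, TOP2A and UBE2C, with the distance in kb from the canonical start on the horizontal axis, 1 row per library and bar height giving the fold enrichment on a linear scale where a full row is 30. Black bars mark the gene, dotted lines its ends, and pale bars are regions listed under a neighbour. RPB1 stands at the start in all 6 genes, phospho-Ser2 stands toward and past the end of CCNB1 and past that of CDK1, and CCNB2 has 1 phospho-Ser2 region inside the gene in KO cells.

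Placed by position, from 1 kb after the canonical start to the gene end, fewer genes were listed in WT alone. A phospho-Ser2 region lay there in 18 genes in WT and 15 in KO cells, 54.5% and 45.5% of the 33. Some of this stretch was covered in 47.5% and 41.8% of all 20007 genes. Among the 11101 genes with an RPB1 region at the start in both lists, as all 33 had, it was 73.2% and 64.9%. Only NDC80, UBE2C and CENPF had a phospho-Ser2 region there in WT alone, 3 of 18, where 18.1% of genes did. AURKB (6.35 and 4.27), CCNB1 (3.87 and 4.20), TPX2 (3.03 and 3.74) and BIRC5 (2.33 and 7.18) had it in both. Of the 15, 2 were higher in KO cells and 0 lower, where 5.18% and 8.89% of 7355 genes were, 10 ratios were below 1, and the median was 0.905 against 0.952. The 2 were CDC20 (3.13 and 6.62) and BIRC5. In CDC20 the regions covered 67.9% and 68.4% of this stretch. At BIRC5 the KO region is listed under TMEM235 and runs past the end, where the WT list held 10.2. The median covered share among genes with cover was 12.3% in WT and 17.2% in KO cells, against 11.0% and 9.95% over all genes. The 18 WT and 15 KO genes behind these medians differ by NDC80, UBE2C and CENPF, which had low cover in WT. Covered share was lower in KO cells in 10 mitosis genes and higher in 8, and over all genes it was lower in 7073 and higher in 2598.

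Phospho-Ser2 was also listed past most gene ends. In the 5 kb after the end, 24 genes had a region in WT and 25 in KO cells, 23 in both, with a median ratio of 1.00. Of these 23, 3 were lower in KO cells and 0 higher, where 13.6% and 7.14% of 8219 genes were. For CDK1, which had no phospho-Ser2 region between 1 kb after its start and its end, the strongest region there was 7.03 in WT and 4.55 in KO cells, with 2 regions in WT and 6 in KO cells. The other two were ESPL1 (6.82 and 3.24) and KIF20A (6.35 and 3.86), whose regions are listed under PFDN5 and CDC23. CCNB1 had 8.38 and 9.60 and UBE2C 4.49 and 6.31 under their own symbols. AURKA had 10.8 and 14.3, in a region listed under FAM210B. The other genes with a ratio ranged from 0.68 at KIF11 to 1.29 at BUB3.

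CDC20 and KIF2C lie on chromosome 1 before 120 Mb, where the 672 genes with a ratio had a median promoter RPB1 ratio of 0.69, against 0.73 elsewhere. Their own median was 0.82.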

How the data were processed

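RPB1 and phospho-Ser2 ChIP-seq was analysed from 4 region lists, 1 per antibody and genotype. According to the methods and the submitters' processing notes, the authors used Trimmomatic for trimming, BWA for alignment to the hg38 genome and MACS2 for narrow peaks, with the input of the same cells as control. Tool versions are not given in the sources used here. The deposited lists hold summit fold enrichments over input, a ratio, and the −log10 of p- and q-values, with the authors' feature and nearest gene, whose annotation tool and release are not given in the sources used here. A deposited csaw table holds the authors' own RPB1 comparison and was not used. The lists carry no read counts, so depth is unknown. MACS2 fold enrichments were not rescaled between libraries.

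The value of a gene was its strongest region of a class, and ratios were formed for genes listed in both genotypes. Promoter regions all lay within 1 kb of an annotated start. With 1 library per group no p-value was computed. Positions used canonical GENCODE release 44 transcripts, and a region's position was its summit. The placement by position and the grouping by WT level were added after the data were seen. The members and lists were chosen with earlier results of these data known. Values in every library were to be given for the 5 highest WT promoter RPB1 values, the 5 highest and 5 lowest ratios of promoter RPB1 and of gene body phospho-Ser2, and each gene listed in 1 genotype only. Shares carry 95% Wilson intervals, which cover counting error only. Of the 27 promoter windows, 25 had their bases after the start in a GENCODE transcript of the gene. Functions were tested on simulated data. The tools were SciPy 1.17.1, NumPy 2.4.6, pandas 2.3.3 and Python 3.11.15. One marker of another cell type is not reported here.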

Additional observations from a re-analysis of the deposited data

How the results depend on the processing

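Of 144 alternative values, 109 stayed within the 95% interval of the reported value or within 1.5 times the main count, and 35 moved. For medians that interval came from the spread over genes, not over libraries. A median that changed sign could thus count as staying, as it did for gene body phospho-Ser2. Counting each interval once and keeping promoter regions within 1 kb could change no value. No interval was repeated and all promoter regions already lay within 1 kb, so these values among the 109 are no check. Leaving out chromosome 1 before 120 Mb moved no value. For promoter RPB1, centring on the all-gene median turned the median to a log2 of 0.10, with 2 lower and 5 higher (9.29% and 10.3% of all genes). A 2-fold limit left 2 lower (10.9% of all genes), covered length gave 3 lower and 2 higher (19.4% and 4.22%), and −log10 q-values 17 lower and 1 higher (63.7% and 2.96%). For gene body RPB1, the 2 higher genes became 0 where −log10 q-values had to reach 5 (5.51% of all genes). Under that limit only 1 mitosis gene still had a ratio. A 2-fold limit also left 0 (1.52%), and centring gave 4 (9.27%). The count was 1 with the median region (6.08%), downstream regions (6.71%), within the assigned transcript (6.90%, with 2 mitosis genes left) or by position (6.02%). For the same class, covered length gave 1 lower (35.2% of all genes). By −log10 q-values its median log2 was 1.10, with 2 lower (37.1%) and 5 higher (14.7%). For promoter phospho-Ser2, 1 gene stayed higher at 2-fold (1.72% of all genes). Covered length turned the median to a log2 of -0.15, with 4 lower (32.4%), and −log10 q-values gave 2 lower (30.8%) and 4 higher (15.6%). For gene body phospho-Ser2, 0 stayed higher at 2-fold (1.48% of all genes). By the median region, covered length and −log10 q-values, 1, 2 and 3 were lower (3.88%, 37.1% and 30.8%). Its median log2 of 0.24 became 0.01 with the median region and turned to -0.05 by covered length, -0.09 with downstream regions and -0.14 by position. When 50% of both regions had to overlap, 50.0% of RPB1 and 30.8% of phospho-Ser2 WT regions were found again. Among WT regions whose −log10 q-value reached 5 it was 93.2% and 77.8%, and gene body RPB1 was then listed in 4 genes in each genotype. TATAAA was in 0 of 27 shorter windows (0.0%). The cause of these moves was not tested. No paired analysis was possible because each group holds 1 library and no test was run. An absent region means that a threshold was not passed, and without read counts or replicates neither the depth nor the spread behind any ratio is known.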
